A study of Mus musculus with 27 samples.

Results

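The 10 genes described here encode the cytokine LIF and its relatives, their receptors, the transcription factor STAT3 and genes that STAT3 activates. They are Lif, Cntf, Clcf1, Lifr, Osmr, Il6ra, Il6st, Stat3, Socs3 and Cebpd. They were chosen by symbol from the 40129 genes of the mouse table. All 10 were found there, and all 10 passed the filter on low values (1 normalized read or more on average over the mice used), which left 27137 genes to be tested. They were read in whole retinas of C57BL/6J mouse pups (C57BL/6 in the labels) in the model of oxygen-induced retinopathy (OIR). OIR pups were exposed to hyperoxia and then returned to room air. They were killed at p14, when the retina is ischemic, or at p17, when retinal neovascularization (RNV) is at its maximum. Control pups (nOIR) stayed in normoxia and were killed at the same ages. At p14, 6 nOIR and 6 OIR mice were compared, and at p17, 6 nOIR and 8 OIR mice, both sexes included. One library was made per mouse from 1 or both retinas. The pups of each group came from more than 1 litter. The litter of each mouse was not at hand, so differences between litters could not be taken into account in the tests. One further nOIR p14 mouse (S4) was left out because of its lens genes.

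LIF, CNTF, cardiotrophin-like cytokine (Clcf1), oncostatin M and interleukin 6 signal through receptors that share the chain gp130, encoded by Il6st. A ligand joins gp130 to a partner chain such as LIFR or OSMR. JAK kinases bound to the receptor then phosphorylate STAT3, which enters the nucleus. STAT3 turns on the pathway's inhibitor SOCS3, the transcription factor C/EBP delta (Cebpd) and further genes. In the retina, LIF is known as a signal between injured photoreceptors and Müller glia, the radial glia of the retina.

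The deposited table gives normalized reads, which are read counts divided by 1 size factor per mouse. Recovered totals ran from 17029536 to 33593428 reads per mouse, with a median of 30182576, and the shallowest library was OIR p17 mouse S1. Fold changes are differences of means of log2(normalized reads + 1), OIR minus nOIR of the same age, so they understate the change of genes with few reads. A gene passed the test at an adjusted p under 0.05 (limma, Benjamini-Hochberg over the 27137 genes), and was called a DEG if its log2 fold change was also above 2 or below -2. The 8 rod genes read, Sag and Gnat1 among them, summed to between 678267 and 1142999 normalized reads in every mouse. Because whole retinas were used, fewer cells of a type and less RNA per cell cannot be told apart.

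Osmr, Stat3, Socs3 and Cebpd rose in OIR retinas at both ages, the ligands and Lifr did not pass the test at either age, and Il6ra and Il6st passed it at p17. At p14, 4 of the 10 members were higher and 0 were lower, while 3.18% of all genes tested were higher and 2.91% were lower. At p17, 6 were higher and 0 were lower, against 7.39% and 5.12% of all genes. Osmr, Socs3 and Cebpd were upregulated DEG at both ages, as were 0.744% of all genes at p14 and 1.9% at p17. The median log2 fold change of the 10 members was 1.11 at p14 and 1.46 at p17, whereas that of all genes tested was 0.02 at p14 and -0.02 at p17. In Osmr, Stat3, Socs3 and Cebpd every OIR mouse lay above every nOIR mouse of its age. This held for 1.91% of all genes at p14 and 3.9% at p17. Without OIR p14 mouse S2 and OIR p17 mouse S1 (an alternative chosen after seeing the data), 5 members passed at p14 and 7 at p17. Both mice were low in many members, so a gain in member counts is built into this choice. Of all 27062 genes tested there, 1730 passed at p14 and 3646 at p17 in either direction. With these mice kept, 1652 and 3395 of 27137 did.

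**Figure D1:**
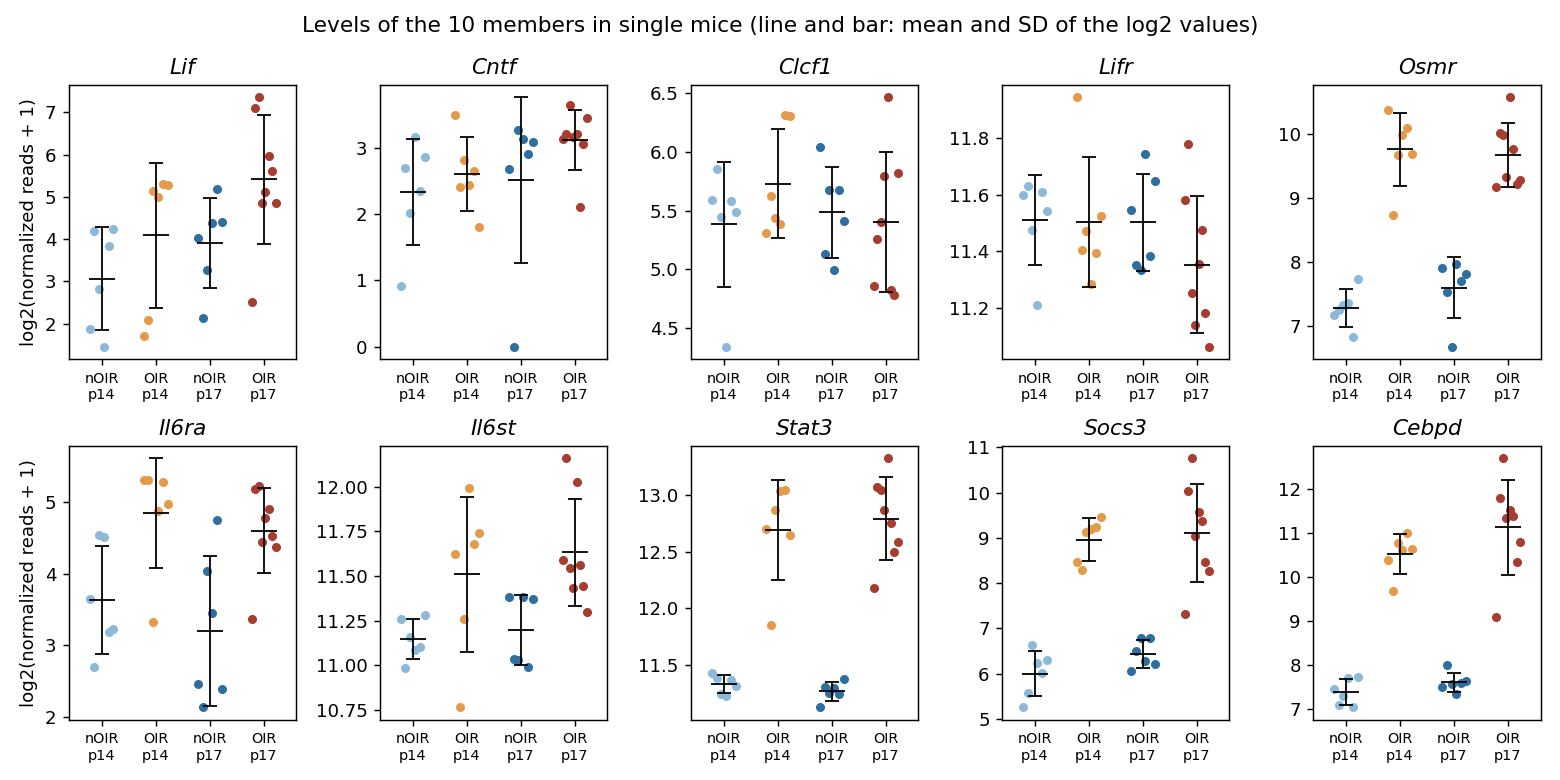
Each point is 1 mouse, on the scale log2(normalized reads + 1), with a separate vertical axis for each gene; horizontal lines and bars give the mean and SD of each group (6, 6, 6 and 8 mice). In Osmr, Stat3, Socs3 and Cebpd the OIR points lie clear of the nOIR points at both ages, while those of Lifr, Cntf and Clcf1 overlap.

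**Figure D2:**
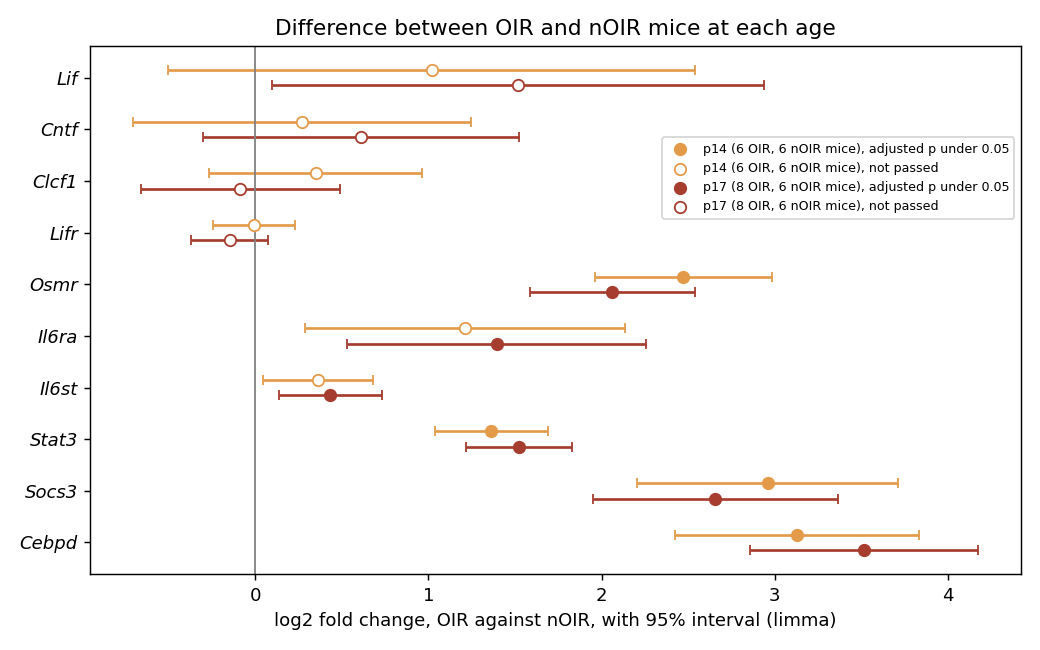
The horizontal axis is the log2 fold change of OIR against nOIR mice with its 95% interval from limma, at p14 and at p17; filled points passed at an adjusted p under 0.05. Cebpd has the largest fold change of the 10 members at both ages, 3.13 and 3.52, and the intervals of Lifr, Cntf and Clcf1 at both ages and that of Lif at p14 cross 0.

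Of the 3 ligands, Lif (leukemia inhibitory factor) had few reads and varied widely between mice. In nOIR p14 mice it ranged from 1.75 to 17.8 normalized reads with a median of 9.65, and in OIR p14 mice from 2.28 to 38.7 with a median of 32.7. The OIR p14 mice were uneven, since S1 and S2 had 2.28 and 3.22 normalized reads whereas the other 4 mice lay above every nOIR p14 mouse. At p17, nOIR mice ranged from 3.40 to 35.3 with a median of 17.6, and OIR mice from 4.67 to 162 with a median of 40.6. Here 7 of 8 OIR mice were above the nOIR median and 4 of 8 above the highest nOIR mouse. The highest 2 were S3 with 162 and S2 with 137 normalized reads, and S1 was the lowest. On the log2 scale the difference was 1.02 at p14 (95% interval -0.50 to 2.54, limma adjusted p = 0.552) and 1.52 at p17 (0.10 to 2.94, adjusted p = 0.176). The exact permutation test (two-sided) gave p = 0.242 at p14 and p = 0.0579 at p17. Without OIR p17 mouse S1 the p17 value was 1.93 and passed (limma adjusted p = 0.0451), and DESeq2 on the recovered reads also called it (1.88, adjusted p = 0.0196).

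Lens and blood genes also differed between the OIR p17 mice with the most and the least Lif. Summed over the 7 tested of 8 lens markers, OIR p17 mice S2 and S3 had 28693 and 9405 normalized reads against 278 in S1, with a group median of 6559. The 5 erythroid markers summed to 11761 and 16980 in S2 and S3 and 1227 in S1. In nOIR p14 mouse S5 the lens sum was 16031 while Lif was at 1.75. The median lens sum was 442 in nOIR and 2053 in OIR mice at p14, and 2064 and 6559 at p17, and the median log2 fold change of the 7 lens markers was 1.02 at p14 and 1.497 at p17, beside 1.02 and 1.52 for Lif. By limma 0 of the lens markers passed the test at either age (0 at an unadjusted p under 0.05, and 0 by edgeR or DESeq2), and all 5 erythroid markers were higher at p17. No lens or erythroid marker was at 0 in every mouse of a group. With the lens gene Cryaa as a covariate, the log2 fold change of Lif was 0.66 at p14 (limma adjusted p = 0.695) and 1.18 at p17 (adjusted p = 0.298). This covariate is 1 lens gene, and the part of lens tissue or of red blood cells in the Lif values was not tested.

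Cntf (ciliary neurotrophic factor) and Clcf1 did not pass the test. At p14 Cntf ranged from 0.89 to 7.88 normalized reads in nOIR and from 2.47 to 10.2 in OIR mice, and at p17 from 0 to 8.64 and from 3.30 to 11.5. Its level was thus near the limit of counting, and its intervals were wide. Its log2 fold change was 0.27 at p14 (95% interval -0.71 to 1.24) and 0.61 at p17 (-0.30 to 1.52). Clcf1 ranged at p14 from 19.3 to 56.7 in nOIR and from 38.7 to 78.5 in OIR mice, and at p17 from 30.9 to 64.9 and from 26.5 to 87.3. The groups overlapped at both ages, with log2 fold changes of 0.35 (-0.27 to 0.96) and -0.09 (-0.66 to 0.49). In the GENCODE M21 annotation Cntf overlaps Zfp91 and Clcf1 overlaps AC109138.7, each on the same strand, so reads in the shared bases are uncertain.

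Among the receptor chains, Osmr (oncostatin M receptor) rose and Lifr (LIF receptor) did not pass the test. Osmr ranged from 113 to 211 normalized reads in nOIR p14 mice (median 156) and from 426 to 1326 in OIR p14 mice (median 915). At p17 it ranged from 102 to 249 (median 215) in nOIR and from 574 to 1513 (median 755) in OIR mice. The lowest OIR mouse at p14 thus had more than every nOIR mouse of either age. Osmr rose by 2.47 ± 0.25 (SE) on the log2 scale at p14 (limma adjusted p = 1.11e-07) and by 2.06 ± 0.23 at p17 (adjusted p = 1.14e-07). The exact permutation test (two-sided) gave the smallest p that these group sizes allow, 0.00216 at p14 and 0.000666 at p17.

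Lifr, the chain that binds LIF, had 2931 ± 299 (SD, n = 6) normalized reads in nOIR p14 and 2936 ± 512 (n = 6) in OIR p14 mice. At p17 it had 2916 ± 349 (n = 6) in nOIR and 2650 ± 464 (n = 8) in OIR mice. The 95% interval of the log2 fold change was -0.25 to 0.23 at p14 and -0.37 to 0.08 at p17. At p17, 3 of 8 OIR mice were above the nOIR median.

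Il6st (gp130), the shared chain, differed by less. It ranged from 2028 to 2492 normalized reads in nOIR p14 mice (median 2243) and from 1739 to 4081 in OIR p14 mice (median 3212). At p17 it ranged from 2036 to 2670 (median 2373) in nOIR and from 2522 to 4576 (median 3004) in OIR mice. Of the OIR mice, 4 of 6 at p14 and 7 of 8 at p17 lay above the highest nOIR mouse, and S2 was the lowest at p14. On the log2 scale it was higher by 0.36 at p14 (95% interval 0.05 to 0.68, limma adjusted p = 0.207) and 0.43 at p17 (0.14 to 0.73, adjusted p = 0.0467). By the exact permutation test (two-sided) p was 0.0693 at p14 and 0.00666 at p17. The p14 value passed without OIR p14 mouse S2 (0.51, limma adjusted p = 0.0204). The p17 call was lost in 18 of 39 alternatives, with adjusted p up to 0.110. Of these, 15 leave out 1 mouse, namely nOIR p17 S2, S3 or S5, OIR p17 S1, S2, S3, S5 or S6, OIR p14 S5 or any nOIR p14 mouse.

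Il6ra, which binds interleukin 6, had few reads. It ranged from 5.49 to 22.3 normalized reads in nOIR p14 mice (median 9.96) and from 9.08 to 38.7 in OIR p14 mice (median 34.1). Mouse S3 held the value of 9.08, and the other 5 OIR p14 mice lay above every nOIR p14 mouse. At p17 it ranged from 3.40 to 25.98 (median 7.22) in nOIR and from 9.33 to 36.5 (median 24.2) in OIR mice, and 4 of 8 OIR mice were above the highest nOIR mouse. Its log2 fold change was 1.21 at p14 (95% interval 0.29 to 2.13, limma adjusted p = 0.127) and 1.40 at p17 (0.53 to 2.26, adjusted p = 0.0248). By the exact permutation test (two-sided) p was 0.0195 at p14 and 0.0127 at p17. It passed at p14 without OIR p14 mouse S3 (1.51, limma adjusted p = 0.0404). The p17 call was lost with edgeR (adjusted p = 0.0659), with quantile normalization (0.0646) and without nOIR p17 mouse S1, S2 or S6 (up to 0.0834). An antisense gene, Gm42809, overlaps Il6ra on the opposite strand, and since the counting ignored strand, reads of both cannot be told apart in the shared bases.

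Levels of different genes were compared per 1000 bases of merged exons (GENCODE M21). On this scale Lifr had 272 ± 27.7 (SD) normalized reads per kilobase in nOIR p14 mice, Il6st 205 ± 15.9, Osmr 12.997 ± 2.65 and Il6ra 1.498 ± 0.85. In OIR p14 mice Lifr was at 273 ± 47.5, Il6st at 272 ± 73.5, Osmr at 75.4 ± 25.1 and Il6ra at 3.53 ± 1.32. In nOIR p17 mice Lifr was at 271 ± 32.4, Il6st at 213 ± 29.1, Osmr at 16.6 ± 4.44 and Il6ra at 1.22 ± 1.02. In OIR p17 mice Il6st, at 292 ± 65.8, had the higher mean and Lifr was at 246 ± 43.0, followed by Osmr at 70.7 ± 26.8 and Il6ra at 2.88 ± 1.03. Lifr thus had the highest mean in both nOIR groups. In both OIR groups the spreads of Lifr and Il6st overlapped. Within single OIR p17 mice Il6st was the higher of these genes in most, and the difference was not tested. The ratio of Lifr to Osmr per kilobase, taken mouse by mouse, was 21.8 ± 5.73 (SD, n = 6) in nOIR p14 and 4.001 ± 1.63 (n = 6) in OIR p14 mice. At p17 it was 17.4 ± 5.50 (n = 6) in nOIR and 3.80 ± 1.18 (n = 8) in OIR mice. The highest ratio in an OIR mouse, 7.15 at p14, was below the lowest in a nOIR mouse, 14.0 at p17.

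Stat3 rose, and its spread was narrow in nOIR mice. It ranged from 2396 to 2762 normalized reads in nOIR p14 mice (median 2596) and from 3704 to 8430 in OIR p14 mice (median 7057). At p17 it ranged from 2232 to 2652 (median 2481) in nOIR and from 4633 to 10266 (median 7205) in OIR mice. The lowest OIR mice were S2 at p14 and S1 at p17, each still above all controls. Stat3 rose by 1.36 ± 0.16 (SE) on the log2 scale at p14 (limma adjusted p = 9.91e-07) and by 1.52 ± 0.15 at p17 (adjusted p = 8.22e-09), a fold of 2.57 and 2.88. The exact permutation test (two-sided) gave the smallest p possible, 0.00216 and 0.000666. Per kilobase, Stat3 had 270 ± 15.1 (SD) normalized reads in nOIR p14 and 718 ± 184 in OIR p14 mice. The neighbour Stat5a overlaps Stat3 on the opposite strand and did not pass the test, with means of 155 (nOIR) and 201 (OIR) normalized reads at p14 and 146 and 174 at p17.

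Socs3 (suppressor of cytokine signaling 3), which blocks gp130 and JAK and so closes the loop, ranged from 37.3 to 98.1 normalized reads in nOIR p14 mice (median 69.3). In OIR p14 mice it ranged from 312 to 698 (median 572). At p17 it ranged from 65.8 to 110 (median 83.4) in nOIR and from 159 to 1732 (median 590) in OIR mice. No OIR mouse overlapped the controls, but the OIR p17 mice were spread widely, from S1 at 159 to S3 at 1732. The difference on the log2 scale was 2.96 ± 0.37 (SE) at p14 (limma adjusted p = 2.58e-06) and 2.66 ± 0.35 at p17 (adjusted p = 1.22e-06).

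Cebpd (C/EBP delta), a transcription factor of the acute phase response, had the highest fold change of the members at both ages. It ranged from 130 to 211 normalized reads in nOIR p14 mice (median 165) and from 821 to 2041 in OIR p14 mice (median 1573). At p17 it ranged from 161 to 256 (median 190) in nOIR and from 544 to 6625 (median 2638) in OIR mice. Mouse S1 was again the lowest and S3 the highest of the OIR p17 mice. The log2 fold change was 3.13 ± 0.34 (SE) at p14 (limma adjusted p = 3.92e-07) and 3.52 ± 0.32 at p17 (adjusted p = 2.24e-09), a fold of 8.74 and 11.4. For both Socs3 and Cebpd the exact permutation test (two-sided) gave the smallest p possible, 0.00216 at p14 and 0.000666 at p17. The gene Spidr overlaps Cebpd on the opposite strand in GENCODE M21.

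The stretches before the starts of Socs3, Osmr and Stat3 are shown because these 3 members were higher in every OIR mouse than in the nOIR mice of its age and have an entry in the promoter table (RefSeq, GRCm38.p6). Each is the 250 bases before the start, written 5′ to 3′ on the strand of the gene, with a match to the STAT motif TTCNNNGAA in capitals. The windows are chr11:117969367-117969616 (minus strand) for Socs3, chr15:6874314-6874563 (minus strand) for Osmr and chr11:100939541-100939790 (minus strand) for Stat3.
Socs3: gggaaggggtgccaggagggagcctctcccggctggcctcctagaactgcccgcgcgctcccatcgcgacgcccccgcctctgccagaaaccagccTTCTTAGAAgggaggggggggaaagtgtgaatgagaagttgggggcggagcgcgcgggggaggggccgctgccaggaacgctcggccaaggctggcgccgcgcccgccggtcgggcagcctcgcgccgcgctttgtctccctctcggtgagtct
Osmr: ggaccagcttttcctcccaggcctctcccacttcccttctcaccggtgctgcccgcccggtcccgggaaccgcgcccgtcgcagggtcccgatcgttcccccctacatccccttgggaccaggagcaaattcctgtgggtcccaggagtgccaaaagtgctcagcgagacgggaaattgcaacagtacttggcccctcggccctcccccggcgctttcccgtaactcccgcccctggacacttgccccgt
Stat3: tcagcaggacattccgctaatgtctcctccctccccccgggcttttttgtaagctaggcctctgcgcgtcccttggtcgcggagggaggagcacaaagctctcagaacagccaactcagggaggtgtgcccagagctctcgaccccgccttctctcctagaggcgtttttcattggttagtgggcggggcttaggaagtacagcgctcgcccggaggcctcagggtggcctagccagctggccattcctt
In Socs3 the match TTCTTAGAA begins 154 bases before the start. The motif reads the same on both strands. Of the 8 members with an entry (9 windows, 2 of them for Lifr; none for Clcf1 and Cebpd), Socs3 was the only one with a match in this window, and 7.02% of all 32851 windows of this length held one. The core of the hypoxia response element, ACGTG, was searched on both strands and found in Il6ra alone among these 8, in overlapping matches that begin 24 and 23 bases before the start. It was in 16.6% of all windows. A match is a string of letters, and binding was not measured.

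The effects at the 2 ages were compared within the same fit. By limma 0 of the 10 members differed in their OIR effect between p17 and p14, and 0 had an unadjusted p under 0.05. By edgeR and by DESeq2 the count was also 0, and of all genes tested by limma 1.58% differed. The difference, p17 minus p14, was 0.39 for Cebpd (95% interval -0.58 to 1.35), -0.30 for Socs3 (-1.34 to 0.73), -0.41 for Osmr (-1.11 to 0.29) and 0.16 for Stat3 (-0.29 to 0.61). With age, 0 of 10 members passed in nOIR mice (0.317% of all genes) and 0 in OIR mice (5.91%). Of these, 0 had an unadjusted p under 0.05 in either, and edgeR and DESeq2 called 0. Between OIR p14 and OIR p17 mice the log2 change was 0.61 for Cebpd (-0.05 to 1.27) and 1.33 for Lif (-0.09 to 2.75). Osmr, Stat3, Socs3 and Cebpd thus had a low pair of nOIR groups and a high pair of OIR groups. Within a pair no difference passed the test, though intervals such as that of Cebpd do not exclude one.

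Some mice were low or high in several members. At p14, mouse S2 was the lowest of the 6 in 5 members (Osmr, Il6st, Socs3, Stat3 and Cebpd). At p17, mouse S1 was the lowest of the 8 in 6 members and S3 the highest in 5. Correlations of log2 values were taken within each OIR group between Lif, Osmr, Socs3, Stat3 and Cebpd, 20 relations in all, with exact permutation tests (two-sided) and Benjamini-Hochberg adjustment over the 20. At p14 0 of the 10 relations had an adjusted p under 0.05 for r or rho, and the relations that passed were those of OIR p17 mice. In the 8 OIR p17 mice, Socs3 and Cebpd had r = 0.97 (exact p = 0.000347, adjusted 0.00694) and rho = 0.98 (exact p = 0.000397, adjusted 0.00397). Without S1 and S3, the 2 mice farthest from the Socs3 median, r was 0.91. Osmr and Stat3 had r = 0.89 (exact p = 0.00164, adjusted 0.0164) and rho = 0.98 (exact p = 0.000397, adjusted 0.00397), and r = 0.78 without S2 and S5.

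Lif and Socs3 in the same 8 mice had r = 0.90 (exact p = 0.00362, adjusted 0.0241) and rho = 0.88 (exact p = 0.00724, adjusted 0.0241). Without S1 and S3 it was 0.67. Lif and Cebpd had r = 0.88 (exact p = 0.00987, adjusted 0.0329) and rho = 0.81 (exact p = 0.0218, adjusted 0.0545), but r fell to 0.44 without S1 and S3, so that this relation rests on those mice. Lif and Osmr had r = 0.52 (exact p = 0.172, adjusted 0.215) and rho = 0.62 (exact p = 0.115, adjusted 0.209). In the 6 OIR p14 mice Socs3 and Cebpd had r = 0.83 (exact p = 0.0444, adjusted 0.0898) and rho = 0.71 (exact p = 0.136, adjusted 0.209), and r = -0.30 without S1 and S2. There Lif and Socs3 had r = 0.96 (exact p = 0.0667, adjusted 0.119) and rho = 0.83 (exact p = 0.0583, adjusted 0.117), and r = 0.53 without S1 and S2. The mice of a group share a treatment but differ in depth, and S1 at p17 is also the shallowest library.

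**Figure D3:**
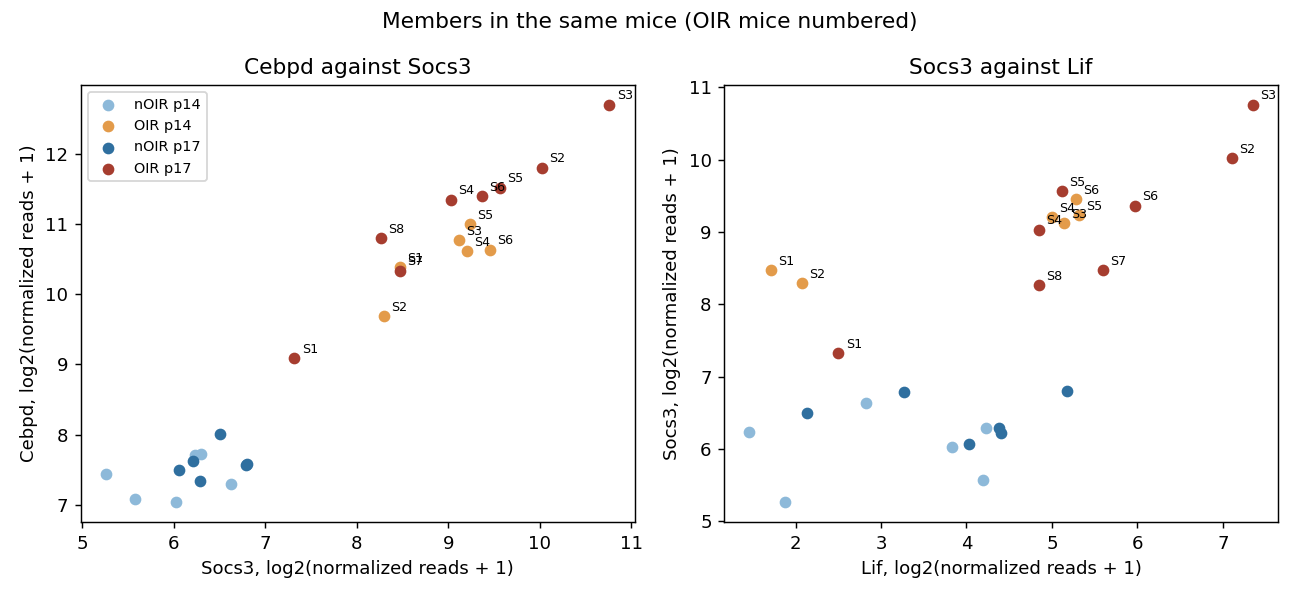
Each point is 1 mouse, with both axes in log2(normalized reads + 1): Cebpd against Socs3 on the left, and Socs3 against Lif on the right, with the OIR mice numbered. OIR p17 mouse S1 has the lowest and S3 the highest values of all 3 genes in its group.

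Markers of several cell types differed between OIR and nOIR mice. Of the 6 astrocyte markers, 3 were higher at p14 and 4 at p17, Gfap and Pdgfra among them, and 0 were lower. At p14 their sum ran from 1493 to 2317 normalized reads in nOIR and from 3518 to 9956 in OIR mice, and at p17 from 1506 to 2154 and from 3676 to 10927. The lowest OIR sums were those of S2 at p14 and S1 at p17, and the highest at p17 was that of S3, mice that were also lowest or highest in several members. Gfap is in both this list and that of the STAT3 response genes. Without Gfap (chosen after seeing the data) the astrocyte sum ran at p14 from 984 to 1368 in nOIR and from 1379 to 2222 in OIR mice, and at p17 from 1167 to 1369 and from 1512 to 2484. In that sum S3 was the lowest OIR mouse at p14, and S1 the lowest and S7 the highest at p17. Of the 10 Müller glia markers, 2 were higher (Crym and Vim) and 5 lower at each age. Of the 10 microglia markers, 3 were higher at p14 and 8 at p17, and their sum ran from 2319 to 2628 in nOIR p17 and from 4183 to 7666 in OIR p17 mice. The microglia sum of OIR p14 mouse S2, 3921, was above its group median of 3629, whereas the lowest OIR p17 sum, 4183, was that of S1 (group median 6362). Of the 6 pericyte markers, 3 were lower at p14 and 5 higher at p17, where their sum ran from 2816 to 3515 in nOIR and from 8527 to 11857 in OIR mice. Of the 7 endothelial markers, 1 was higher and 1 lower at p14, and 5 were higher at p17. Of the 5 macrophage markers, 4 were higher (Mrc1, Cd163, F13a1 and Ms4a7) and 1 lower (Lyve1) at p17. At p14 0 of them passed by limma (1 at an unadjusted p under 0.05, 0 by edgeR or DESeq2). The sum of the macrophage markers lay lower in OIR mice at p17, from 492 to 746 (median 615), against 739 to 952 (median 846) in nOIR mice. As Lyve1 alone was lower, this sum reflects that gene and not the other 4. Of the 3 neutrophil markers tested, 0 passed at p14 by limma and S100a8 was higher at p17 (edgeR called 0). The neutrophil sum over 5 markers had a median of 3.19 in nOIR p17 and 14.7 in OIR p17 mice, with S1 lowest at 1.56. Of the 6 bipolar cell markers, 1 was lower at p14 (Grm6) and 5 at p17, and of the 7 ganglion cell markers, 2 were lower at p14 (Nefl and Nefm) and 4 at p17. Of the 8 rod markers, 2 were lower at p14 (Pde6a and Gnat1) and 3 at p17 (Pde6a, Pde6b and Sag), and the median of their sum was 946911 in nOIR and 734565 in OIR mice at p14, and 1066504 and 841960 at p17. No marker of the astrocyte, Müller glia and microglia lists was at 0 in all mice of a group. The part of these cells in the members' values was not tested.

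The other genes of the pathway were read by list. Of 7 other gp130 ligands, 1 passed the test at each age, Osm at p14 and Il27 at p17. Both reached the filter on low values only through the OIR mice and were compared with a group at 0, so their values are given as a description. Oncostatin M (Osm), the ligand of OSMR, was listed at 0 in all 6 nOIR p14 mice and at 0 to 20.2 normalized reads in OIR p14 mice. At p17 its mean was 0.33 in nOIR and 2.97 in OIR mice. Il27 was listed at 0 in all 6 nOIR p17 mice and at 0 to 12.5 in OIR p17 mice. Il6 was at or below 9.08 normalized reads in each of the 26 mice, and Il11 had group means from 6.22 to 10.6. Ctf1 (group means from 37.5 to 65.7), Ebi3 (33.9 to 51.8) and Ctf2, which was at or below 5.95 normalized reads in each mouse, did not pass the test at either age. At p17 the log2 fold change of Ctf1 was -0.83 (limma adjusted p = 0.0724), and it passed with quantile normalization, without OIR p17 mouse S1 or S4, without OIR p14 mouse S1, and without OIR p14 S2 and OIR p17 S1, which made the p17 count 2. Osm and Il27 are too low for a filter at a mean of 10, under which the count was 0 at both ages.

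Of the 3 other receptors, 0 passed at p14 by limma, with 0 at an unadjusted p under 0.05 and 0 by edgeR or DESeq2. At p17 Cntfr fell and Il11ra1 rose. Cntfr, the chain that binds CNTF, ranged from 305 to 443 normalized reads in nOIR and from 155 to 333 in OIR p17 mice, a log2 fold change of -0.71 (limma adjusted p = 0.000912). Il11ra1, the receptor of interleukin 11, ranged from 299 to 412 in nOIR and from 359 to 544 in OIR mice, a log2 fold change of 0.39 (adjusted p = 0.00877). Il27ra had means of 8.53 and 21.6 and did not pass.

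Of the 9 JAK kinases and other STAT factors read, 1 was higher at p14 (Jak3), 2 at p17 (Jak3 and Stat6), and 0 were lower. At p14 Stat6 had a log2 fold change of 0.40 (limma adjusted p = 0.0527), and it passed in 8 alternatives, which made the p14 count 2. These were DESeq2, one total, a mean of at least 10, Cryaa as a covariate, S4 included, and leaving out nOIR p14 mouse S1, OIR p14 mouse S1 or OIR p17 mouse S2. Jak3 rose from 96.9 ± 36.3 (SD, n = 6) to 270 ± 135 (n = 6) normalized reads at p14, and from 76.8 ± 24.9 (n = 6) to 416 ± 121 (n = 8) at p17. Stat6, the factor of interleukin 4 signaling, ranged from 262 to 308 in nOIR and from 543 to 843 in OIR p17 mice, and its OIR effect was larger at p17 than at p14 by 0.79 on the log2 scale (adjusted p = 0.00876). The kinase Jak1 had means from 5593 to 5998 normalized reads over the 4 groups.

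Among the 15 other feedback inhibitors and phosphatases, 0 passed at p14 by limma (1 had an unadjusted p under 0.05, and edgeR and DESeq2 called 0). At p17 the phosphatases Ptpn1 and Ptpn6 were higher, with log2 fold changes of 0.49 (limma adjusted p = 0.000305) and 1.15 (adjusted p = 0.00845). Socs1 had means of 44.2 (nOIR) and 55.7 (OIR) normalized reads at p14 and 41.0 and 62.6 at p17, and Cish 406 and 381 at p14 and 377 and 428 at p17. Of 4 other C/EBP factors tested, 0 passed at p14 by limma (1 at an unadjusted p under 0.05, 0 by edgeR and DESeq2) and Ddit3 was higher at p17 (0.42, adjusted p = 0.0285), a call lost in 9 of 39 alternatives (adjusted p up to 0.113). Of these, 6 leave out 1 mouse, namely nOIR p17 S1 or S6 or OIR p17 S2, S3, S7 or S8. Calls were also gained, since Cebpa passed at p14 without nOIR p14 mouse S3. At p17 the count was 2 with one total (Cebpg and Ddit3) and with DESeq2 (Cebpa and Ddit3).

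The list of 20 genes known to respond to STAT3 was chosen with earlier results of these data known, so its counts are a description. Of the 20, 13 were higher at p14 and 14 at p17, against 3.18% and 7.39% of all genes tested. None was lower at p14, and Hif1a was lower at p17 (-0.30, limma adjusted p = 0.00661), a call lost with quantile normalization (-0.20, adjusted p = 0.0995). The p14 calls of Fos and Myc were each lost in 6 of 39 alternatives (adjusted p up to 0.0908 and 0.0741). For Fos 5 of these leave out 1 mouse (nOIR p14 S3 or S5, or OIR p14 S1, S3 or S5), and for Myc 4 do (nOIR p14 S2 or S7, or OIR p14 S1 or S4). The median log2 fold change of the list was 0.93 at p14 and 1.84 at p17, against 0.02 and -0.02 over all genes. Without both OIR p14 mouse S2 and OIR p17 mouse S1, 13 passed at p14 and 15 at p17 in either direction. The largest changes of the list were those of Edn2 (endothelin 2), which had at most 14.2 normalized reads in a nOIR p14 mouse and from 133 to 783 in OIR p14 mice, with log2 fold changes of 7.44 (p14) and 7.64 (p17). Timp1, an inhibitor of metalloproteinases, rose by 5.90 and 5.03 on this scale, and the growth factor Fgf2 by 2.83 and 1.98. Bcl3, a partner of NF-kappaB, ranged from 11.0 to 23.3 normalized reads in nOIR p14 and from 102 to 329 in OIR p14 mice. Serpina3n, a protease inhibitor of reactive glia, ranged from 32.4 to 58.7 and from 151 to 1431 in the same groups. Lcn2 (lipocalin 2) rose by 2.42 on the log2 scale at p14 and by 1.36 at p17. The cell cycle gene Ccnd1 rose by 0.76 and 1.35, whereas the adhesion gene Icam1 passed at p17 alone, at 1.92. Pim1, Mcl1, Bcl2l1, Hp and Il4ra passed at neither age.

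For 5 of these 20 genes the OIR effect was larger at p17 than at p14, namely Junb, Fos, Myc, Birc5 and Vegfa. The calls of Junb, Fos, Myc and Vegfa were lost in 1, 9, 3 and 1 of 38 alternatives. Junb, a subunit of AP-1, ranged from 676 to 1525 normalized reads in OIR p14 and from 994 to 4643 in OIR p17 mice, and its effect grew by 1.28 on the log2 scale (limma adjusted p = 0.0251). Myc, a regulator of growth, had means of 67.1 (nOIR) and 132 (OIR) normalized reads at p14 and 32.8 and 181 at p17. Its effect was larger by 1.47 (adjusted p = 0.0244). The nOIR mean lay lower at p17, a change with age that did not pass by limma. Birc5 (survivin), a gene of dividing cells, differed by 1.56 (adjusted p = 0.0389), a call lost in 17 of 38 alternatives (adjusted p up to 0.177). The members Socs3 and Cebpd had differences of -0.30 and 0.39, neither of which passed.

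**Figure D4:**
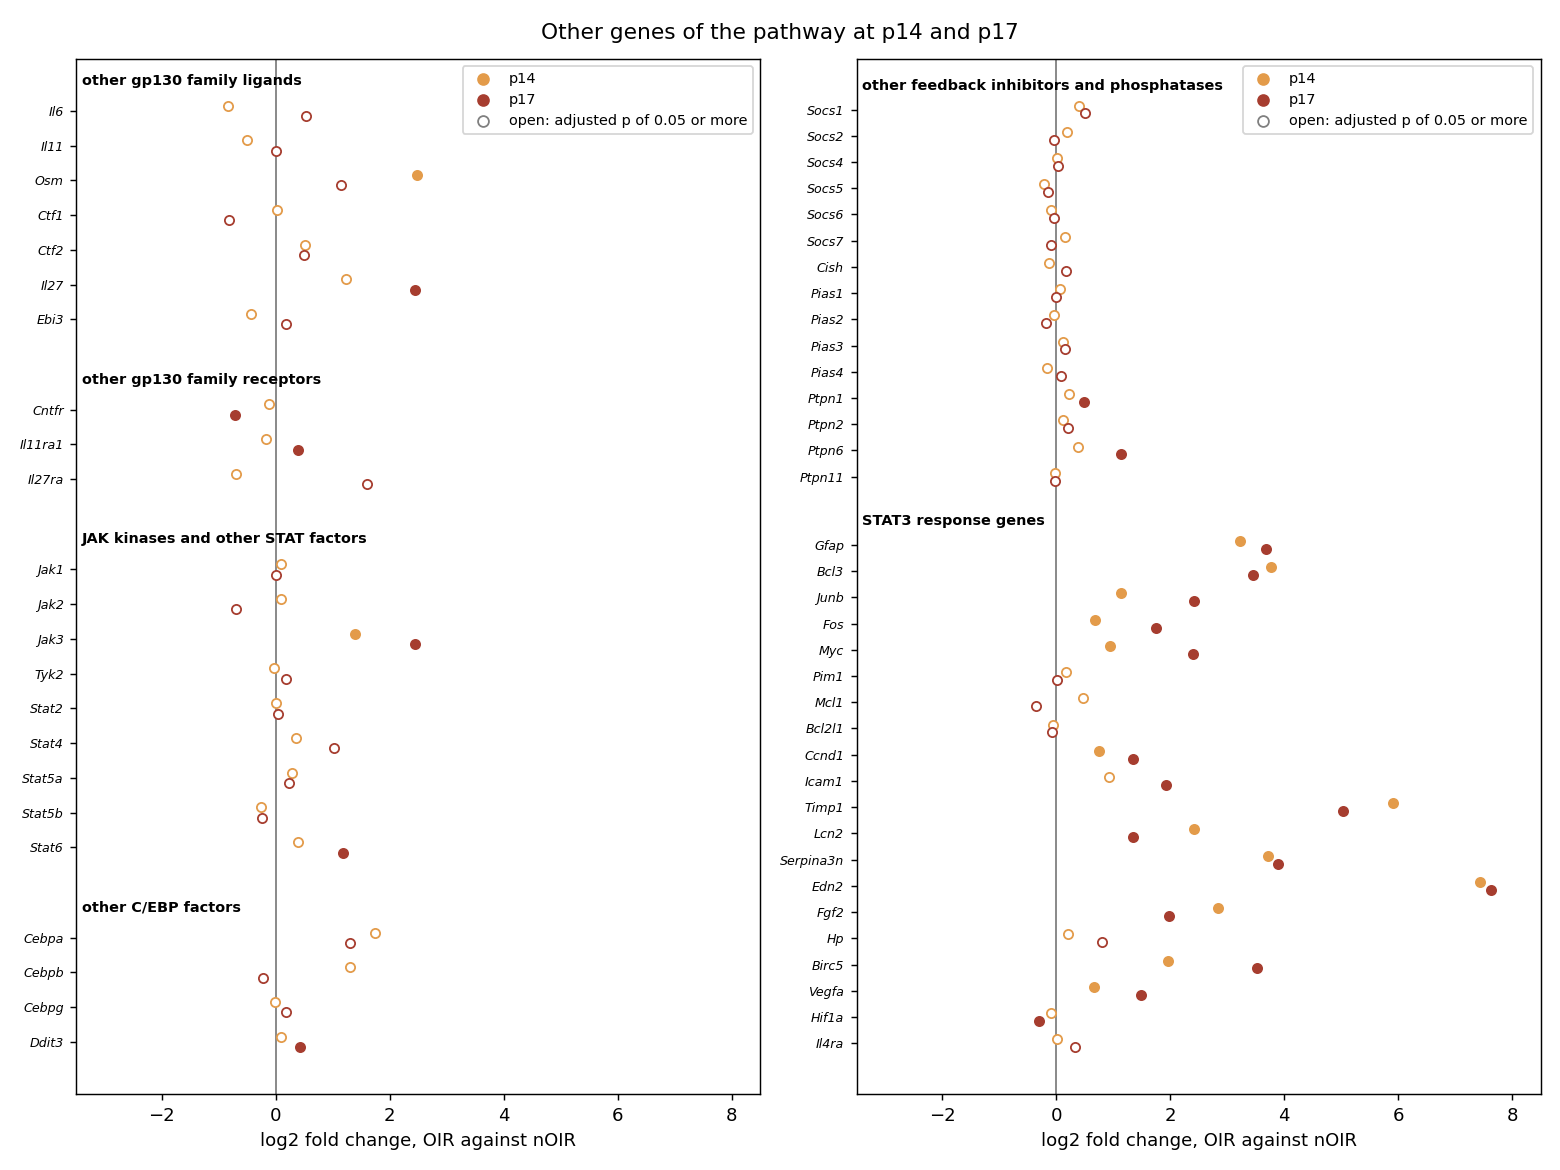
The horizontal axes give the log2 fold change of OIR against nOIR at p14 and p17 for the genes of 6 further lists; filled points passed at an adjusted p under 0.05 (limma), open points did not. Of the inhibitors and phosphatases, Ptpn1 and Ptpn6 are filled at p17, while 13 of the STAT3 response genes are filled at p14 and 15 at p17.

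As a description, the genes most like Socs3 over the 26 mice were found among the 19004 genes that averaged 10 normalized reads or more, by Pearson's r of log2 values. They were Cebpd (0.97), Bcl3 (0.97), Gadd45b (0.96), Timp1 (0.95) and Pcolce (0.94). With the group means removed, r was 0.87, 0.81, 0.77, 0.71 and 0.66. Stat3 ranked 9 (0.93), Osmr 33 (0.91) and Lif 993 (0.64). With the group means removed this order did not hold, with r of 0.63 for Stat3, 0.41 for Osmr and 0.65 for Lif. The genes most like Lif were Cnnm4 (0.84), Pkp2 (0.75), Podxl (0.75), Slc35e4 (0.74) and Niban2 (0.73). For these 5, r was 0.76, 0.68, 0.65, 0.59 and 0.58 with the group means removed. Socs3 ranked 46 in the first order and Cebpd 121. Here too the order did not hold with the group means removed, r being 0.65 for Socs3 and 0.56 for Cebpd. The mice share groups and the genes share each mouse's library, so these values carry no p.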

How the data were processed

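The authors mapped single reads of whole-retina libraries with RNA STAR 2.7.8a, counted them on Gencode M28 genes with featureCounts 2.0.1, dropped genes without a read in any sample, and scaled each mouse by a DESeq2 1.34 size factor. The signal they deposited is thus in normalized reads. Libraries were made with the SMARTer Ultra Low Input RNA Kit v4 and Nextera XT, and featureCounts ran with its default parameters, which ignore strand. Group means of this signal by the authors are in the deposited table too, with their log2 fold changes of OIR against nOIR and their adjusted p-values, of which none were used. PCR copies were kept, so reads are not independent molecules.

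In every mouse 100% of the values were whole multiples of the worth of 1 read (within 0.001 of a read), and the whole reads were recovered from them. Limma 3.58.1 in R 4.3.3 (eBayes with a trend) was fitted to log2(normalized reads + 1) of 26 mice in 4 groups, with Benjamini-Hochberg adjustment. Exact permutation tests used scipy 1.17.1 (Python 3.11.15). Within a group no 2 libraries were copies (chi-square per degree of freedom of at least 9.39, genes with at least 20 reads). Limma was tested on simulated data.

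All members were named, with the gp130 ligands and receptors, the genes of the other pathway lists that passed at p14 or p17 with a mean of at least 10, and the 5 genes most like Lif and Socs3. A few genes that passed neither test (Jak1, Stat5a, Socs1, Cish and the 5 of the STAT3 list) were named after their values were seen, to complete their lists. A few genes of the lists are not reported here. Members and lists were chosen with earlier results of these data known. Alternatives were a pseudocount of 0.1, no filter, a mean of at least 10, S4 included, the compared groups only, a block for mouse number, rescaling to one total, quantile normalization, edgeR 4.0.16 and DESeq2 1.42.0 on recovered reads, Cryaa or Xist as a covariate, and each mouse left out. Leaving out OIR p14 S2 with OIR p17 S1 was added after the data were seen. The genome at hand, GRCm38, served only for exon lengths, overlaps and promoters.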

Additional observations from a re-analysis of the deposited data

Results flagged for a closer look

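In 9 of 40 member groups 1 mouse stood apart from the others of its group. Chance would set a mouse apart in about 1 in 20 groups if values were normal and independent. The members share mice, and the share over all genes was not counted, so the 9 cannot be read as particular to the members. OIR p14 mouse S2 had 3704 normalized reads of Stat3, the next mouse having 6411. For Il6ra, OIR p14 mouse S3 had 9.08 (next 28.4) and OIR p17 mouse S1 had 9.33 (next 19.7). Lifr was at 2369 in nOIR p14 mouse S5 (next 2846) and at 3935 in OIR p14 mouse S1, above the next mouse at 2949. Osmr was at 102 in nOIR p17 mouse S3 (next 185) and Clcf1 at 19.3 in nOIR p14 mouse S5 (next 42.5). Cntf was listed at 0 in nOIR p17 mouse S2 (next 5.41) and at 3.30 in OIR p17 mouse S6 (next 7.32).

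For 6 genes of the further lists the OIR effect differed between p17 and p14 by limma, each being larger at p17. On the log2 scale the difference was 0.79 for Stat6 (adjusted p = 0.00876), 1.28 for Junb (0.0251), 1.06 for Fos (0.0319), 1.47 for Myc (0.0244), 1.56 for Birc5 (0.0389) and 0.83 for Vegfa (0.0116). Over 38 alternatives each kept its direction. Stat6 passed in all 38, and the others were lost in 1 (Junb), 9 (Fos), 3 (Myc), 17 (Birc5) and 1 (Vegfa).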

How the results depend on the processing

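The counts of members that passed stayed within 1.5 times their value under each alternative. They ran from 4 to 5 at p14 and from 5 to 7 at p17 over the alternatives that keep every mouse or leave out 2, and from 4 to 5 and 4 to 6 when each mouse was left out. The lowest p17 count came without nOIR p17 mouse S2. For the difference between ages the count was 0 throughout. Osmr, Stat3, Socs3 and Cebpd passed at both ages under every alternative run, with adjusted p of at most 8.72e-05. The STAT3 response list gave 11 to 13 genes at p14 and 15 at p17 when each mouse was left out.

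Mouse numbers recur in every group, and whether they pair the mice could not be settled. Over 34 pairs of the same number the correlation of deviations from the group means ran from -0.23 to 0.33. Its median was 0.01, and -0.003 for pairs of different number. In 7 of 26 mice the best correlation was with their own number, and the count due to chance was not worked out. With a replicate block, 4 members passed at p14, 6 at p17 and 0 differed between ages.

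Values near 0 changed sign, and the cause was not tested. Lifr at p14 was 0.038 with one total, 0.0096 with quantile normalization, 0.0033 with edgeR and 0.0033 with DESeq2, 0.026 with Cryaa, 0.0089 with Xist and 0.013 without OIR p14 S2 and OIR p17 S1, and ran from -0.094 to 0.037 when each mouse was left out. The difference between ages was -0.072 for Il6st without both mice, -0.000623 for Il6ra with DESeq2, and 0.0076 (edgeR) and 0.011 (DESeq2) for Socs3. When each mouse was left out it ran from -0.078 to 0.17 for Il6st, -0.12 to 0.50 for Il6ra, -0.0058 to 0.25 for Stat3 and -0.16 to 0.62 for Cntf. Cntf at p14 ran from -0.015 to 0.43 and Clcf1 at p17 from -0.24 to 0.025. Lif, Cntf and Il6ra have few reads, and their fold changes are the least certain.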

Other observations

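The nOIR p14 mouse left out of all comparisons (S4) lay above the other 6 nOIR p14 mice in 5 members, with 3698 normalized reads of Lifr, 247 of Osmr, 3367 of Il6st, 2916 of Stat3 and 7.93 of Cntf. It lay below all of them in Cebpd (113), and within their range in the other 4. Its Osmr, Stat3, Socs3 and Cebpd values were all below those of every OIR p14 mouse. Its lens markers summed to 15199 normalized reads, the group median of the other 6 mice being 442 and their highest sum 16031 (S5).

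Some pathway genes that passed no test were very uneven among OIR p17 mice, and were picked after their values were seen. Cebpb, a relative of Cebpd, ranged from 6.40 to 612 normalized reads in OIR p17 mice and from 65.8 to 109 in nOIR p17 mice. Jak2 ranged from 271 to 1951 in OIR p17 mice and from 1367 to 1697 in nOIR p17 mice, and was also uneven at p14 (655 to 1619 in nOIR, 924 to 1856 in OIR mice). Mcl1, an inhibitor of cell death, ranged from 963 to 4349 and from 3016 to 3284 in the same groups, and from 1413 to 3455 in nOIR p14 mice.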
